A study of Caenorhabditis elegans with 4 samples.

Results

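The regions described here are 209 HCP-4 peaks on the arms of the 6 nuclear chromosomes of Caenorhabditis elegans, out of 672 peaks in the list deposited for the whole series. The arms are what remains of a chromosome on either side when its middle part, 1 of 3 of the same length, is set aside as the centre. Length was measured from base 1 to the largest peak end on it in any of the 3 deposited lists. Members were chosen by the positions of called peaks: a peak of the series-level list was a member if its midpoint lay on an arm and if it overlapped, by at least 1 bp, a peak called in ChIP replicate 1 and a peak called in ChIP replicate 2. Peak scores played no part in the choice. Position and recurrence chose the members, so both are given as descriptions.

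HCP-4 is the worm counterpart of CENP-C, a protein of the inner kinetochore that binds centromeric chromatin, carried by the centromeric histone HCP-3 (CENP-A), and recruits the outer kinetochore, which attaches chromosomes to spindle microtubules. C. elegans chromosomes are holocentric: the kinetochore assembles along their whole length rather than at a single point. The arms of the autosomes are known to differ from the centres in being richer in repeats and in repressive chromatin, and in recombining more often.

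The study applied chromatin immunoprecipitation and sequencing (ChIP-seq) to wild-type N2 embryos of mixed stages, from cultures of males and hermaphrodites kept at 20 °C. Of the 4 samples, 2 were ChIP libraries made with a polyclonal rabbit antibody against HCP-4, purified by affinity (5 µg on 3 mg of extract from embryos fixed in 1% formaldehyde for 5 min), and 2 were input DNA libraries, which were not analysed here. The labels do not say whether the libraries came from separate cultures, and the samples include no immunoprecipitation without HCP-4, so a peak is a place of called signal and not a proven site of the protein. No read counts were used, so the depth behind each peak is unknown. Coordinates are 1-based on WormBase WS220; no WS220 sequence or annotation was used, so peaks were not assigned to genes.

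Replicated arm peaks were a minority of the peaks but held most of the sequence under peaks. They made up 31.2% of the 670 nuclear series-level peaks and covered 269 kb, which is 52.9% of the bases under all nuclear peaks. The 70 replicated peaks of the centres likewise made up 10.4% of the peaks and 19.8% of the bases. Of 451 arm peaks, 209 were found in both replicates (46.3%, 95% Wilson interval 41.8 to 51.0%), beside 41.6% over all nuclear peaks. A further 62 arm peaks met a peak of replicate 1 only, 35 met one of replicate 2 only, and 145 met neither. The shares were nearly equal on both sides, with 99 of 215 peaks replicated on left arms (46.0%) and 110 of 236 on right arms (46.6%).

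Members ran from short, weak peaks to blocks of several kilobases. The median member was 747 bp wide (range 146 to 11706 bp). Series-level scores, which are the peak caller's own values, ran from 1.69 to 66.1 with a median of 17.7. Arm peaks not found in both replicates had a median width of 258 bp and a median score of 4.90. The 70 replicated peaks of the chromosome centres lay close to the members on both measures, with a median width of 748.5 bp and a median score of 15.6. Of the 209 members, 38 were at least 2 kb wide (18.2%), and these held 53.3% of the members' bases. Among the 242 other arm peaks 1 was that wide. Wide peaks were not particular to the arms: 16 of the 70 replicated centre peaks were that wide (22.9%) and held 62.0% of those peaks' bases. No test was made, because width and score come from the calls that chose the members.

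**Figure D1:**
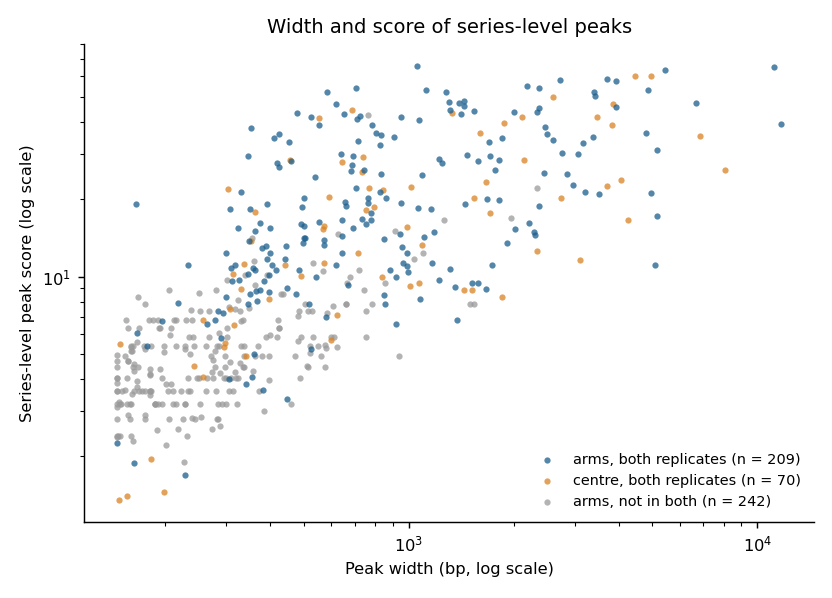
Width (bp, x axis) and series-level score (y axis), both on log scales, for each of the 209 replicated arm peaks, the 70 replicated centre peaks and the 242 arm peaks not found in both replicates. Replicated arm and centre peaks spread over largely overlapping ranges, with maximum widths of 11706 bp on arms and 8091 bp in centres. Most other arm peaks are short and low, with medians of 258 bp and 4.90.

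The score of an arm peak went with its recurrence. With the nuclear list ranked by score and cut into 4 classes, the top one held 127 arm peaks, and 122 of these 127 were members (96.1%, 95% Wilson interval 91.1 to 98.3%), against 37 of 41 centre peaks (90.2%, interval 77.5 to 96.1%). In the next class, with scores of 6.96 to 14.7 on the arms, 69 of 113 arm peaks were members (61.1%), against 20 of 48 centre peaks (41.7%). Below that, recurrence was rare on arms and in centres. In the class after that, 10 of 103 arm peaks recurred (9.71%), against 8 of 70 centre peaks (11.4%), and in the lowest class 8 of 108 (7.41%), against 5 of 60 (8.33%). Among the 67 nuclear peaks above the 90th percentile of score, 53 were members, 13 were replicated centre peaks and 1 was an arm peak found in neither replicate. Score and recurrence are tied in part by construction. A peak recurs only if it was called in each replicate list, where the lowest scores were 50.1 and 50.2 in replicates 1 and 2. The series-level score may also come from the same libraries.

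All 12 arms held members, in unequal numbers. The right arm of IV had the most, 28 of its 46 peaks, at 4.80 members per Mb, closely followed by the right arm of I, with 24 of 47 at 4.78 per Mb, and the left arm of X, with 25 of 42 at 4.33 per Mb. The right arm of II had the fewest, 7 of 19 at 1.39 per Mb, with the left arm of IV (9 of 12, 1.54 per Mb) and the right arm of X (10 of 23, 1.73 per Mb) not far above it. The 2 arms of a chromosome could therefore differ, as on IV and X. Over the chromosomes, members per Mb of arm ran from 2.08 on II to 4.18 on I. Few members on an arm did not mean weak ones: the 10 members of the right arm of X had a median score of 32.9, while the 28 of the right arm of IV had 15.3.

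**Figure D2:**
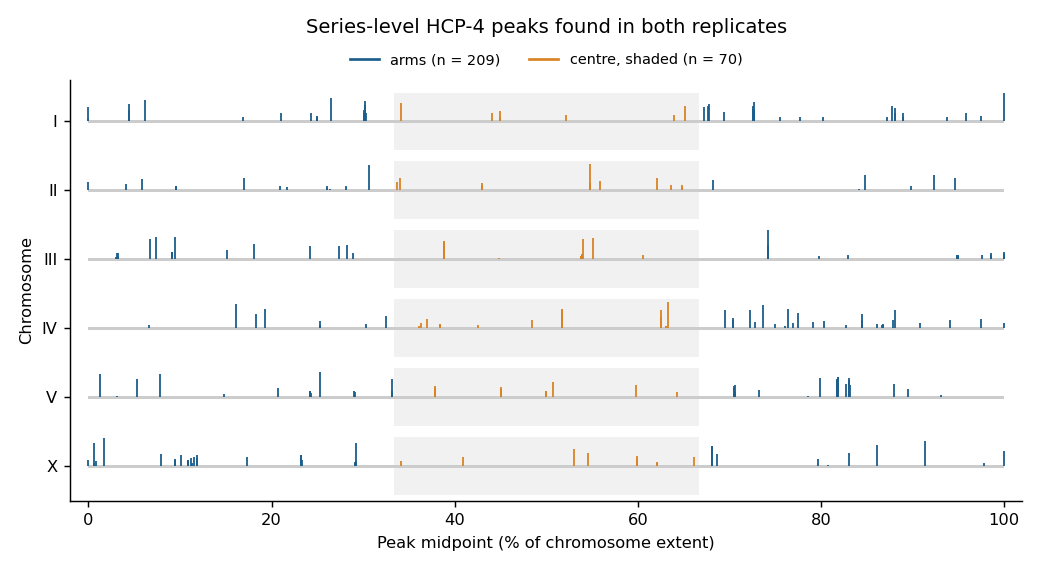
Position of each replicated series-level peak as a percentage of chromosome extent (x axis) on the 6 nuclear chromosomes, with line height proportional to score. The 70 centre peaks lie in the shaded part and the 209 arm peaks to either side of it; the right arm of II holds 7 arm peaks and the right arm of IV 28.

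Replicated peaks numbered 3.14 per Mb on the arms and 2.11 per Mb in the centres. The difference was not shared by all chromosomes. On I there were 4.18 members per Mb of arm against 1.39 replicated peaks per Mb of centre, on V 3.01 against 1.29, and on X 3.03 against 1.56. On II, III and IV the densities were nearly level, at 2.08 against 2.18, 3.48 against 3.48 and 3.17 against 3.09. The share of called peaks that recurred was 46.3% on arms and 32.0% in centres, a difference of 14.4 percentage points (95% Newcombe interval 6.49 to 21.8, which treats neighbouring peaks as independent and is therefore too narrow). That difference rested on how peaks were counted. It was 6.22 points without 1 central stretch of 61.8 kb on IV (6668654 to 6730413), which held 57 series-level peaks of which 5 recurred. It turned to -8.93 points when peaks under 10 kb apart were joined and regions were counted, with 134 of 216 arm regions (62.0%) and 44 of 62 centre regions (71.0%) recurring. It was also negative, at -3.38 points, when overlap with replicate 1 alone was required. The comparison therefore gives no direction that holds for peaks and regions alike.

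Each library gave its own list of arm peaks. Replicate 1 had 374 arm peaks, of which 241 overlapped a replicate 2 peak (64.4%, 95% Wilson interval 59.5 to 69.1%), and replicate 2 had 338, of which 259 overlapped a replicate 1 peak (76.6%, interval 71.8 to 80.8%). In the centres, 80 of 194 replicate 1 peaks (41.2%) and 94 of 109 replicate 2 peaks (86.2%) overlapped the other list, so the arm share was above the centre share in replicate 1 and below it in replicate 2. These shared arm peaks held 247 kb of sequence in replicate 1 against 239 kb in replicate 2 (mean 243 ± 5.75 kb, SD, n = 2), with median widths of 506 and 499 bp. Joined within 10 kb, they formed 141 regions in each replicate. The number of arm peaks called was 356 ± 25.5 (SD, n = 2). Shared peaks overlap by definition, so their covered sequence and number of regions are alike in part by construction.

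Where the libraries could be compared peak by peak, their edges lay close together. For 125 of the 209 members, exactly 1 peak of each replicate met the member and met no other member. At these the starts in the replicates were a median of 26 bp apart (quartiles 9 and 51 bp) and the ends a median of 26 bp apart (quartiles 10 and 62 bp). Starts were within 100 bp of each other at 108 of the 125 (86.4%) and ends at 105 (84.0%). The peaks themselves were far longer than these differences, with median widths of 618 bp in the series-level list, 623 bp in replicate 1 and 579 bp in replicate 2. Over all 209 members, peaks covered a median of 93.9% of the member in replicate 1 and 93.7% in replicate 2. Coverage was under 50% for 25 members in replicate 1 and for 29 in replicate 2.

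Overlap with both lists did not always mean overlap of the lists with each other. At 204 of the 209 members, some bases lay under peaks of both replicates, 216 kb in all or 80.4% of the members' sequence. At the other 5, on III, IV and V, peaks of the 2 replicates met different bases of the member. The scores of these 5 were at most 10.2. They are III 13083523 to 13084375, III 13084468 to 13085390, III 13588374 to 13589888, IV 15059138 to 15059536 and V 19488974 to 19489333, and they were named after their values were seen.

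The scores at members also ranked similarly in the libraries. The score of a member in a replicate was taken as the highest score of the replicate peaks that met it. Spearman's rho between the replicates was 0.73 over the 209 members and 0.83 over the 125 with 1 peak in each, beside 0.84 over the 70 replicated centre peaks. These values describe peaks that share libraries, and 32 members shared a replicate 1 peak with another member. High replicate scores were often tied: a score of exactly 3100 was listed for 17 members in replicate 1 and for 13 in replicate 2. The order of the tied members cannot be read from the replicate lists.

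**Figure D3:**
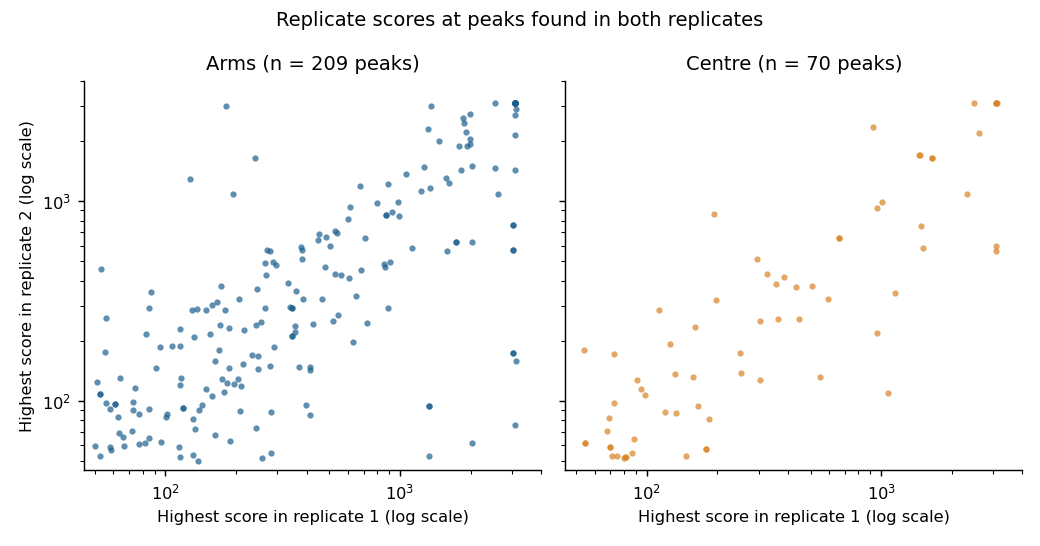
Highest replicate 1 score (x axis) against highest replicate 2 score (y axis), log scales, for the 209 replicated arm peaks (left) and the 70 replicated centre peaks (right). Most points follow the diagonal, some arm peaks lie far from it, and 13 arm peaks are listed at exactly 3100 in replicate 2.

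The 20 members with the highest series-level scores came from all 6 chromosomes, with 5 on X, 4 each on I, III and V, 2 on IV and 1 on II. Their scores ran from 47.0 to 66.1, and the median width was 2273.5 bp (range 582 to 11168 bp). In replicate 1 a single peak met 16 of the 20, and in replicate 2 a single peak met 18. Replicate 1 peaks covered at least 91.0% of each and replicate 2 peaks at least 86.3%. The lowest replicate scores among them were 928 in replicate 1 and 887 in replicate 2, both at IV 12891248 to 12891829.

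A high score did not require a wide peak. The highest-scoring member, III 10224471 to 10225524, was 1054 bp wide and scored 66.1, with 3123 in replicate 1 and 2887 in replicate 2. The narrowest of the 20, IV 12891248 to 12891829, was 582 bp wide and scored 52.4. Another compact peak, III 931122 to 931739, was 618 bp wide and scored 47.0, with 1228 in replicate 1 and 1122 in replicate 2. At the other extreme, I 15060211 to 15071378 was 11168 bp wide and scored 65.3, with 3100 in each replicate. Over the members, score and width ranked together only in part (Spearman's rho 0.57, n = 209).

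**Figure D4:**
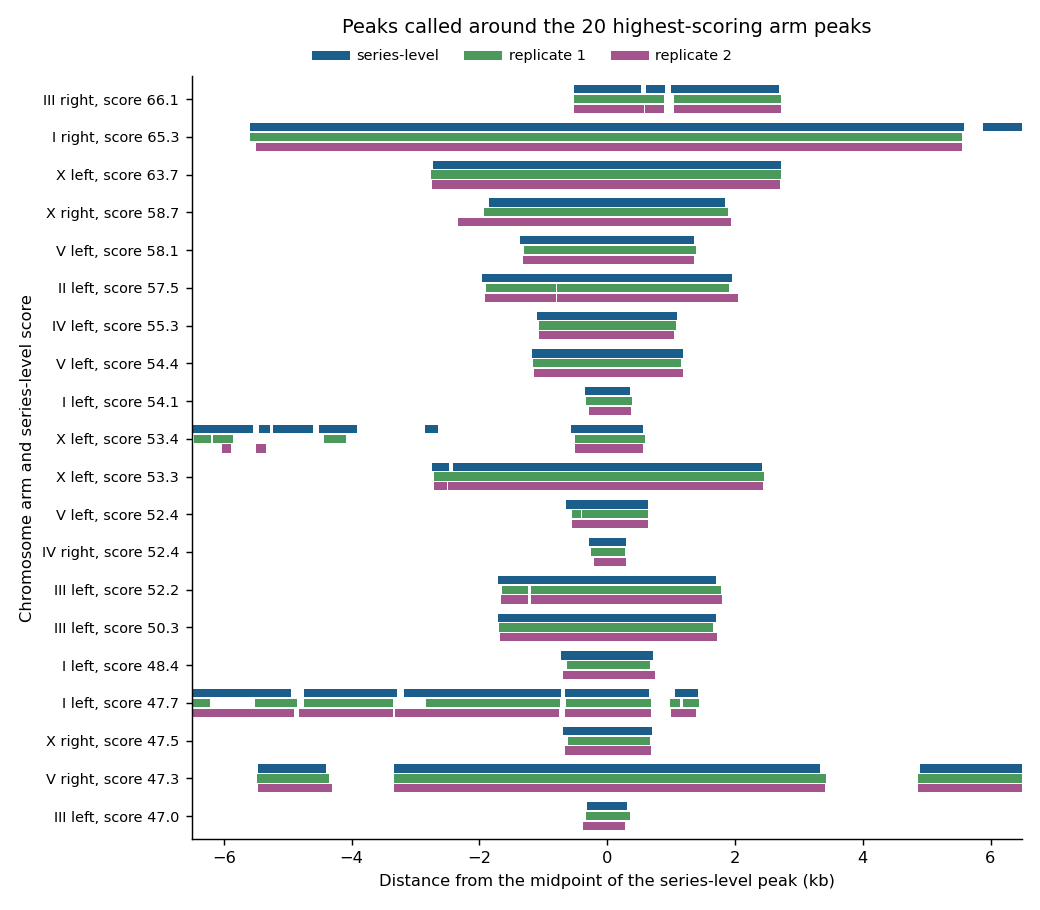
Peaks called in the series-level list, replicate 1 and replicate 2 around the 20 highest-scoring arm peaks, drawn to scale against distance from the midpoint of each series-level peak (kb). The 3 lists mark nearly the same stretch at each, with a single replicate 1 peak at 16 and a single replicate 2 peak at 18 of the 20.

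Taken arm by arm, the strongest member stood high in both libraries on every arm, at or above the 87.9 percentile of score in replicate 1 and the 83.7 percentile in replicate 2. On the left arms it lay at I 3989992 to 3990696 (score 54.1, 980 in replicate 1 and 995 in replicate 2), II 4641148 to 4645068 (57.5, 1851 and 2625), III 1299638 to 1303047 (52.2), IV 2828427 to 2830611 (55.3), V 5283179 to 5285895 (58.1) and X 289871 to 295322 (63.7). The last 4 scored 3100 in each replicate. On the right arms of I, III and IV it was the peak at I 15060211, III 10224471 and IV 12891248 given above. On the remaining right arms it lay at II 12843664 to 12846159 (36.0, 1820 and 1433), V 17119927 to 17126587 (47.3, 3100 in each) and X 15807483 to 15811181 (58.7, 3100 in each). The right arm of II, which held the fewest members, thus also had the lowest maximum.

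The 3 widest members lay at 2 places on I and 1 on V. The widest, I 10207570 to 10219275, spanned 11706 bp and scored 39.1; it was cut into 3 peaks in replicate 1 and 8 in replicate 2, which still covered 99.7% and 98.9% of it. The second was the peak at I 15060211, which was called as 1 unbroken peak in each replicate; its right end in replicate 1 (15071351) and replicate 2 (15071348) differed by 3 bp. The ribosomal RNA gene repeats lie at this end of chromosome I, and a short read from a repeat can be aligned to any of its copies. Whether this peak lies in them, or holds such reads, was not tested. Next in width, V 17119927 to 17126587, was 6661 bp wide and lay in a group of 4 members between 17115396 and 17132100, with scores of 40.6 to 47.3 and 4 peaks in each replicate. The 5S ribosomal RNA genes form a tandem array on the right arm of V, but whether these members lie in it was not tested.

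The 3 narrowest members were 146 bp (II 12749822 to 12749967), 163 bp (II 12749611 to 12749773) and 165 bp (X 2057045 to 2057209) wide. The pair on II, with scores of 2.26 and 1.89, met the same single peak of 329 bp in replicate 1 and of 249 bp in replicate 2. These peaks covered 100% and 97.3% of the narrower member, but 66.9% and 36.2% of the other, in replicates 1 and 2. The X member scored 19.1, and replicate peaks of 391 and 369 bp enclosed it.

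Members came singly and in groups. Joined where they lay under 10 kb apart, the 209 members formed 136 regions. A single member made up 101 of them, and the other 35 held 108 members (51.7%). Of 197 gaps between neighbouring members on an arm, 58 were under 1 kb (29.4%) and 34 were under 200 bp. Between the joined regions of an arm the median gap was 356 kb, and the longest was 2413 kb.

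The region with the most members lay on the right arm of V, at 17384080 to 17394559. It held 10 members within 10.5 kb, which covered 80.9% of it, with scores of 8.82 to 44.4. Replicate 1 had 16 peaks there and replicate 2 had 15. The strongest member stood at its left edge (17384080 to 17385393, score 44.4), with 1980 in replicate 1 and 2040 in replicate 2. Next in score were 17389666 to 17390217 (38.9), with 265 in replicate 1 and 490 in replicate 2, and 17392155 to 17393062 (35.0), with 501 in replicate 1 and 597 in replicate 2. Both libraries showed this place as a row of separate peaks.

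The second region differed in form between the libraries. At I 10945902 to 10953058, 6 members with scores of 13.04 to 43.8 covered 88.4% of 7.16 kb. Replicate 1 had 1 peak over all of them, 7187 bp wide with a score of 3019, while replicate 2 had 4 peaks with scores of at most 760. The region after it, I 4540399 to 4548534, held 5 members with scores of 19.1 to 47.7 in 8.14 kb, and met 8 peaks of replicate 1 and 5 of replicate 2. It was 1 of 4 regions with 5 members and was taken as the first in chromosome order. Here replicate 2 had the longer peaks and the higher maximum score, 3016 against 1349 in replicate 1. The number of members in a region therefore depended on where the series-level list was broken, and it does not count separate sites.

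**Figure D5:**
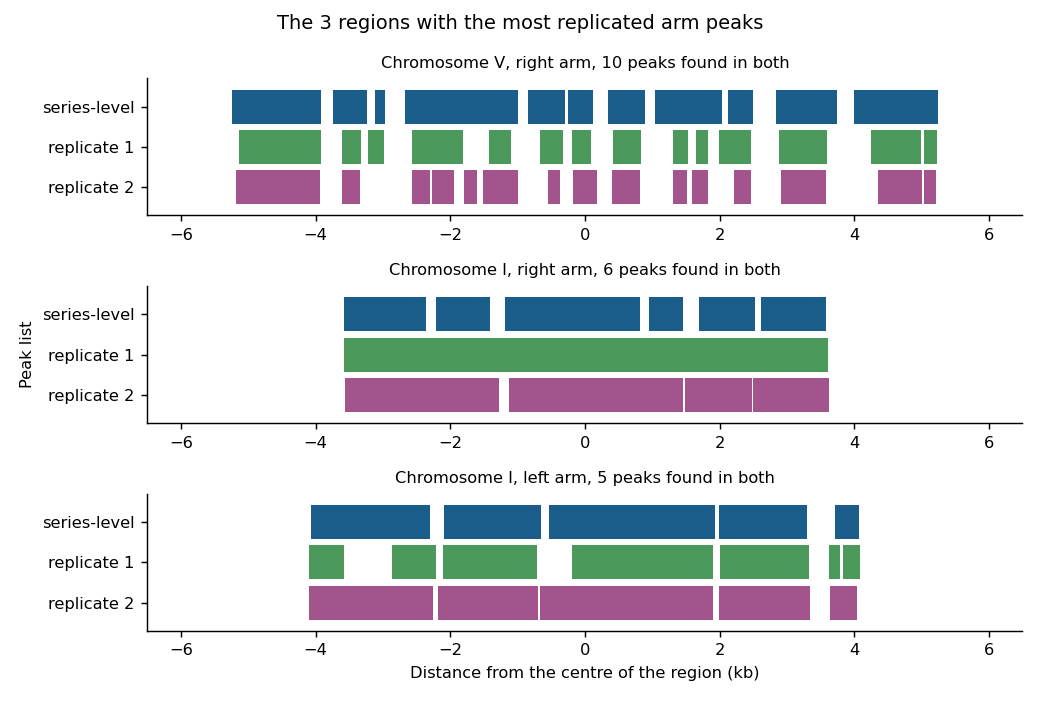
Peaks of the series-level list, replicate 1 and replicate 2 in the 3 regions with the most replicated arm peaks, against distance from the centre of the region (kb). The third is the first in chromosome order of 4 regions tied at 5 members. On V all lists show a row of separate peaks; in the region on the right arm of I replicate 1 has 1 peak where replicate 2 has 4.

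A few members stood much higher in one library than in the other. Ranks are percentiles of score within each nuclear replicate list, and since the lists differ in length they show no change in binding. The most uneven towards replicate 1 was I 13407716 to 13408385 (score 9.25), at the 90.1 percentile in replicate 1 and the 7.16 percentile in replicate 2. IV 4421692 to 4421888 (6.72) stood at 94.5 and 17.7 in replicates 1 and 2. Both lay at the edge of a long replicate 1 peak, of 4166 and 5684 bp, which gave the member its high score there. The other case, III 2077551 to 2082504 (21.1), was 4954 bp wide: replicate 1 had 1 peak of 5044 bp with a score of 3100, and replicate 2 had a peak of 195 bp with a score of 75.3, which covered 3.94% of the member.

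Towards replicate 2, the most uneven members were III 13589984 to 13592003 (score 15.4), I 4573200 to 4573695 (18.7) and III 452936 to 453332 (8.70). They stood at the 7.39, 12.5 and 2.46 percentiles in replicate 1, and at 75.2, 64.4 and 46.3 in replicate 2. At the first of these, replicate 1 scored 53.2 and replicate 2 scored 459. In all 3 the replicate 1 peaks were shorter than those of replicate 2, at 301 against 1402 bp, 137 against 344 bp and 142 against 267 bp.

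Some members lay at the very ends of the assembled chromosomes, where telomeric repeats are found. Members began at base 1 on I (1 to 455, score 33.4), II (1 to 392, 19.2) and X (1 to 324, 15.4), and a second member on I followed at 837 to 1125 (5.80). In replicate 1 the peaks at these 3 starts scored 356, 187 and 178, and in replicate 2 they scored 238, 146 and 111. The replicate lists went further: both had a peak that began within the first 3 bases on 5 of the 6 chromosomes, all but V. On III these spanned bases 3 to 167 in replicate 1 (score 142) and 2 to 165 in replicate 2 (77.6). On IV they spanned 2 to 221 (69.9) and 3 to 199 (81.6). Neither had a series-level counterpart, so the starts of III and IV are not among the members.

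Right ends can be placed only by the largest peak end in the lists. Members lay within 1 kb of that point on III (13782063 to 13782844, score 17.7), IV (17492447 to 17493019, 13.3) and X (17311411 to 17311820, 34.8). The X member is itself the peak with the largest end, so its place there was fixed by the definition. How far these 3 members lie from the true chromosome ends was not tested. The member on III scored 136 in replicate 1 and 288 in replicate 2, that on IV 84.8 and 291, and that on X 267 and 425. The share of arm peaks that were members showed no steady trend with distance from the end, taken on right arms as the largest peak end. It was 50.0% (9 of 18) within 0.1 Mb, 36.1% (30 of 83) from 0.1 to 1 Mb, 43.0% (34 of 79) from 1 to 2 Mb and 50.9% (28 of 55) from 2 to 3 Mb. From 3 to 4 Mb it was 59.0% (46 of 78), and from 4 to 7 Mb 44.9% (62 of 138). Median member scores in the distance classes ran from 13.45 to 21.3, and score ranked only weakly with distance to the end (Spearman's rho 0.13 over 209 members, -0.05 on left arms and 0.32 on right arms).

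The arm boundaries were fixed by chromosome extent and not by gaps between peaks. Extent is itself the largest peak end in the lists. Where it falls short of the true chromosome end, the boundaries lie too far left, and peaks near them could change sides. Joined regions on an arm lay a median of 356 kb apart, so a boundary that falls between replicated peaks is no sign of a break. The member nearest inside a boundary was V 6942036 to 6942984 (score 41.9), 32.2 kb within the left arm. The replicated peak nearest outside was II 5097123 to 5097877 (18.2), 50.0 kb into the centre. The next on each side were V 6941034 to 6941531 (13.5), 33.4 kb within the arm, and X 11442729 to 11443747 (22.4), 98.0 kb into the centre.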

How the data were processed

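BWA and the ce10 build are named in the submitters' processing notes, and per the file headers coordinates are those of WormBase WS220. The source column of each file names MACS for the replicate lists and MACS version 2 for the series-level list; of thresholds, the use of inputs and the way libraries were combined, nothing is said in the sources used here. For each peak the authors deposited 1 score by the peak caller, on a scale the files do not state; scores were used to describe and rank peaks within a list, and those ranks were correlated between the replicate lists. Mitochondrial peaks (2) were left out.

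Overlaps, joining (gaps under 10 kb), Wilson intervals and Spearman correlations were computed with pandas 2.3.3, scipy 1.17.1 and numpy 2.4.6 under Python 3.11.15. The count of 209 members was checked with bedtools 2.31.1, and overlap was tested on simulated data, where every planted shared peak was found in 20 of 20 list sets. Intervals cover the number of peaks only. No test was made, since the lists chose the members, there are 2 ChIP libraries and peaks are not replicates. Regions were named by a fixed rule: the 20 highest scores, the highest on each arm, the 3 widest and narrowest, the 3 fullest regions, the 3 most uneven between replicates each way, and those nearest the arm boundaries. Ties were broken by chromosome and start. Peaks at chromosome ends were added after their values were seen. Members and rule were chosen with earlier results of these data known. Alternatives covered overlap, score, arm limits, single libraries, joining distance and regions left out. GC content and genes were not analysed, because no sequence or annotation of the build was used.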

Additional observations from a re-analysis of the deposited data

How the results depend on the processing

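Of 58 alternative values, 36 stayed within their allowed spread and 20 moved further, while the 2 rank correlations had no such spread to be set against. The spread was 1.5 times the count, the interval of the share or difference, or the SD between the replicates. For median width and covered sequence this SD (4.95 bp and 5.75 kb, n = 2) is that of the shared arm peaks of the replicate lists. It is not a spread of the members' own series-level values, so a small move past it means little. For the score percentile it was 7.05, from the members' median percentiles in the replicate lists. Median start and end differences were set instead against the SD over the 125 members with 1 peak in each. That SD is loose, since the largest start difference was 3651 bp, so these could hardly have moved past it. The number of members ran from 151 (arms narrowed to the outermost 25% on each side) to 271, all within 1.5 times of 209; with one replicate list alone it was 244 to 271. All 20 highest-scoring members remained members under each alternative except narrower arms (13) and leaving out the last 50 kb of chromosome I (19). Several of these outcomes were fixed in advance. A single replicate list only loosens the rule, and the upper 50% by score keeps the highest scores, so neither could remove any of the 20. Narrower arms and regions left out act by position alone. The recurring share of arm peaks moved to 37.5% with 50% of the peak covered in each replicate, 76.9% in the upper 50% by score, 62.0% with joined regions, and 54.1 to 60.1% with one replicate left out. The arm minus centre difference in that share ranged from -3.38 (without replicate 2) to 19.4 points (without replicate 1), and was -8.93 with joined regions and 6.22 without the densest central region; both of these were added after seeing the data. Median member width moved to 737 bp (50% covered), 805 bp (upper 50% by score), 728 bp (narrower arms), 742 bp (without the end of I) and 577 to 686.5 bp with one replicate left out. Covered sequence moved to 228 kb (50% covered), 190 kb (narrower arms), 260 kb (without the fullest region), 258 kb (without the end of I) and 289 to 293 kb with one replicate left out. Spearman's rho between replicate scores was 0.71 with the longest-overlapping peak and 0.73 with 50% covered. Regions numbered 143 joined within 2 kb and 124 within 50 kb. No paired analysis was possible because no result comes from a test and the input libraries were not analysed. GC content was not run. Depth is unknown, so a missing overlap may mark a weak peak in either library.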

Other observations

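On the arms, 6 replicate 1 peaks overlapped a replicate 2 peak but no peak of the series-level list. Counted from the replicate 2 list there were 7, and the places below are those of replicate 1. Besides the first bases of III and IV, replicate 1 had these peaks at III 10796303 to 10796543, V 17428789 to 17429043, X 4285351 to 4285541 and X 12502599 to 12502781. All 4 were short, at 183 to 255 bp, and their scores ran from 65.2 to 78.2 in replicate 1 and from 58.0 to 62.8 in replicate 2.

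Conversely, 5 arm peaks in the highest of the 4 score classes were not found in both replicates. The strongest, I 15071677 to 15072439 (763 bp, score 42.6), met a peak in neither replicate; it lies beside the 11168 bp member at the right end of I. I 1935638 to 1937978 (score 22.1) and III 13596015 to 13597280 (16.7) met replicate 2 only, with scores of 798 and 168 there. IV 5465048 to 5467007 (16.9) and X 1636262 to 1637175 (15.1) met replicate 1 only, with scores of 344 and 147.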
